A study of Glycine max with 6 samples.

Results

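Transcripts of bZIP transcription factors were measured in soybean seed coats of 2 colours. The probe sets described here are those that the array's annotation gives a single gene symbol beginning with bZIP, in any letter case. They number 89 of the 61170 probe sets on the array and stand for 58 genes of the 6029 that single symbols of soybean probe sets name. Seed coats were dissected from 3 black (iRT) plants and from 3 brown (irT) plants of the nearly isogenic variety Clark, when a fresh seed weighed 300 to 400 mg, the transition stage of seed development. Both isolines carry the i allele, which leaves the whole seed coat pigmented, and the T allele of the flavonoid 3'-hydroxylase locus, and they differ at the R locus, whose dominant allele gives the black, anthocyanin-containing coat. The plants were grown without treatment in a cabinet, and 1 array was hybridized for each plant. The comparison asks which transcripts differ between an anthocyanin-containing seed coat and one without anthocyanins.

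A bZIP factor binds DNA through a basic region and pairs with another bZIP protein through a leucine zipper, so that the partner helps to set the target. Many plant bZIP factors recognize sites with an ACGT core, among them the G-box and the abscisic acid response element. In plants the family is known for roles in abscisic acid signalling, seed maturation, light responses, the response to unfolded proteins and defence.

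Values are RMA signals on the log2 scale, in which 1 unit is a doubling, and they compare a probe set between plants but not one probe set with another. The background level of an array was the 95th percentile of its 23394 probe sets for pathogens, and it lay at 3.54 to 3.78. The medians of the 37641 soybean probe sets lay at 5.76 to 5.91, and the correlation between any pair of arrays was 0.983 to 0.996 over them. The seed coat transcripts Ep, a peroxidase, SCB1, a BURP domain protein, and HPS, a hydrophobic surface protein, had mean signals of 11.2 to 14.0 and lay above background on all 6 arrays. Of 14 probe sets for embryo storage proteins and trypsin inhibitors, 12 also lay above background on at least 3 arrays, and some varied widely between plants. GY7, a glycinin, gave 9.24, 8.50 and 4.33 in black and 5.50, 7.54 and 3.26 in brown plants. The other glycinins, GY1, GY2, GY3 and GY5, did not share this order, with plant 2 the lowest of each genotype. A probe set of GY2 gave 7.13, 6.52 and 7.51 in black and 7.65, 6.53 and 7.29 in brown plants. KTI3, a trypsin inhibitor, was high in black plant 1 alone, with 11.77, 8.23 and 8.72 in black and 8.49, 8.04 and 8.18 in brown plants. The part of these embryo transcripts in the bZIP values was not tested. In such bulk tissue, fewer cells of a type and less RNA per cell cannot be told apart.

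Most bZIP probe sets of the array were detected in the seed coat. Of the 89 probe sets, 72 (80.9%) lay above background on at least 3 arrays, 70 of them on all 6, and 17 were not well above background on any array. Among the 8677 soybean probe sets with 1 gene symbol, 80.5% lay above background. At least 1 probe set was above background for 48 of the 58 symbols. The 10 symbols with none included BZIP21, BZIP46, BZIP47, BZIP48 and BZIP112. In the RefSeq annotation of the Glycine_max_v4.0 assembly, 55 of the 58 genes were found by their gene ID, on 18 chromosomes.

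No bZIP probe set passed the adjusted threshold between black and brown seed coats. In limma, with p-values adjusted by Benjamini and Hochberg over the 37641 soybean probe sets, 0 of 89 had an adjusted p under 0.05 in either direction, and the smallest was 0.473. Of all soybean probe sets, 0.0664% were called higher and 0.0425% lower in black. At an unadjusted p under 0.05, 5 bZIP probe sets (5.62%) passed, 1 higher and 4 lower in black, against 8.32% of all soybean probe sets, with 3.08% higher and 5.24% lower. This number was 9 without black plant 3 or without brown plant 2, and 2 without brown plant 3. The share of all soybean probe sets was not counted for these fits, so whether the number departs from it cannot be told. At the fold and p thresholds of the study, with the p of limma, no bZIP probe set passed, against 0.303% of all.

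The interval of the difference was narrow for most of the family. For 87 of 89 bZIP probe sets (97.8%) the 95% interval lay within 2-fold in either direction, against 96.2% of all soybean probe sets, and for 79 (88.8%) it lay within 1.5-fold, against 79.4% of all. BZIP35 and BZIP132 were the exceptions at 2-fold. The 87 include the 17 probe sets not well above background on any array, where low signals limit the difference that can be seen. The median difference, black minus brown, was -0.003 over the bZIP probe sets and -0.017 over all soybean probe sets. The median size of the difference was 0.085, against 0.106 over all, and 41 differences were positive and 48 negative.

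**Figure D1:**
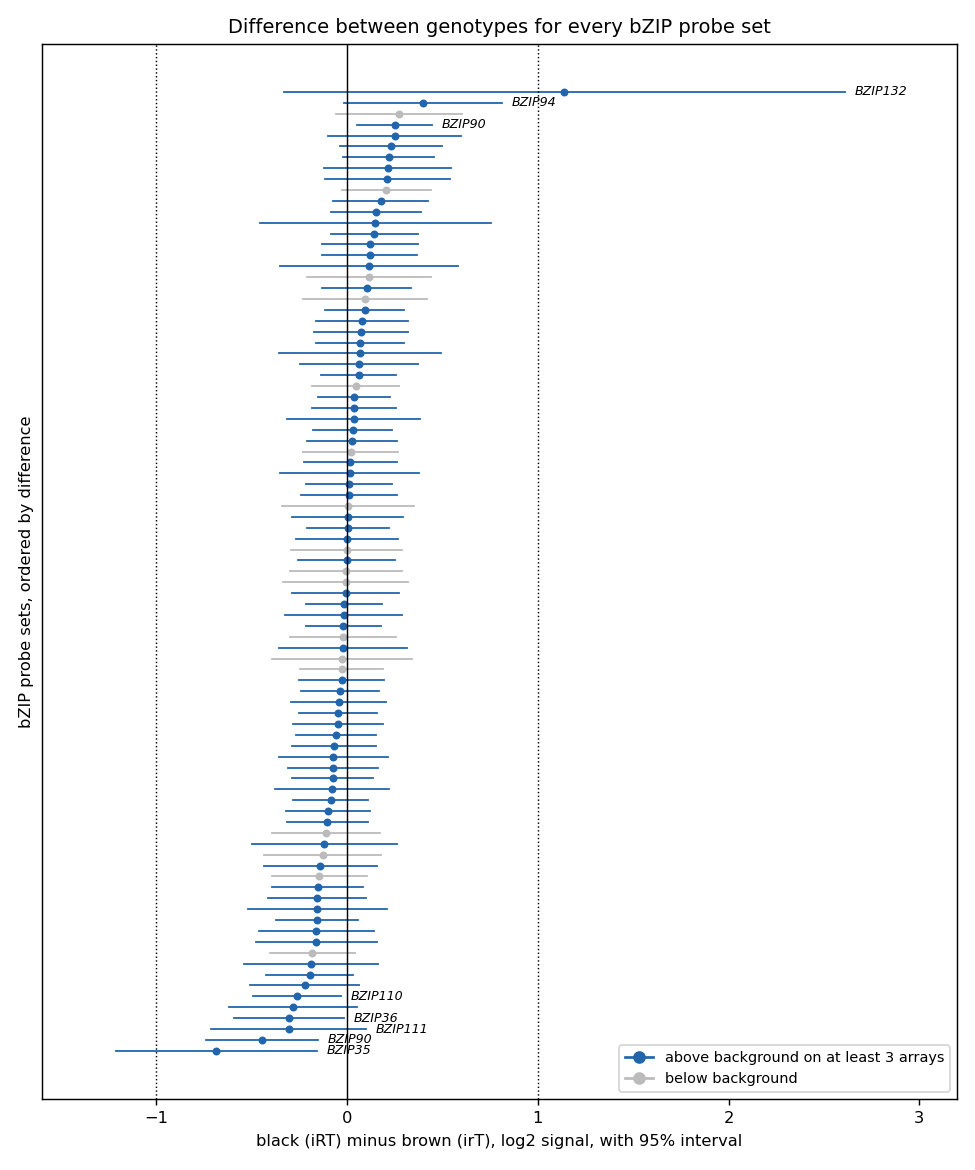
Difference in log2 signal, black (iRT) minus brown (irT), with its 95% interval from limma, for each of the 89 bZIP probe sets, ordered by the difference. Grey points lie below background, dotted lines mark 2-fold, and only the intervals of BZIP132 at the top and BZIP35 at the bottom cross a dotted line.

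The 3 black and the 3 brown signals did not overlap in 13 of 89 bZIP probe sets (14.6%), with black higher in 4 and lower in 9. Over all soybean probe sets the groups did not overlap in 14.0%, with black higher in 5.74% and lower in 8.30%, so the bZIP share lay near the background. Fewer plants separate more easily, and the number moved with single plants. It was 27 when black plant 2 was left out and 28 when black plant 3 was, with 26.0% and 31.3% of all soybean probe sets apart. It was 28 when brown plant 2 was left out and 21 when brown plant 3 was, with 26.4% and 22.0% of all apart. Without black plant 1 it was 19 and without brown plant 1 it was 18, each with 20.8% of all apart. Black lay above brown in 2 probe sets of BZIP90 and 1 each of BZIP59 and BZIP21. Black lay below brown in another probe set of BZIP90 and in probe sets of BZIP35, BZIP36, BZIP37, BZIP42, BZIP62, BZIP109, BZIP110 and BZIP124. The probe sets of BZIP21 and BZIP42 were not well above background on any array.

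Members studied in abscisic acid and salt responses included some close to the background level and some far above it. BZIP132, a soybean factor studied for its part in salt stress responses, gave 7.77, 7.36 and 5.59 in black plants and 5.45, 6.74 and 5.12 in brown plants. Black plants 1 and 2 were the highest, but black plant 3 lay below brown plant 2, so the groups overlapped. The means were 6.91 ± 1.16 in black and 5.77 ± 0.85 in brown seed coats (SD, n = 3 each). The difference of 1.14 was the largest of any bZIP probe set and the only one over 2-fold, as was the case for 1.01% of all soybean probe sets, with an interval from -0.33 to 2.61 (limma adjusted p = 0.671). It moved to 1.80 without black plant 3 and to 0.71 without black plant 1.

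BZIP110, likewise studied in salt stress, has 3 probe sets. One gave 8.13, 7.99 and 7.86 in black plants, against 8.28, 8.21 and 8.28 in brown plants, with a difference of -0.26 (interval -0.49 to -0.03, limma adjusted p = 0.569). All black plants lay below all brown plants here, whereas the other probe sets of BZIP110 gave -0.14 and 0.07, with overlap. BZIP62, which altered abscisic acid sensitivity and stress tolerance when expressed in Arabidopsis, had high signals in every plant. One probe set gave 11.87, 11.71 and 11.90 in black plants and 12.01, 11.94 and 12.00 in brown plants, a difference of -0.16 (interval -0.37 to 0.06), and the other probe sets of the symbol gave 0.06 and 0.14. BZIP44, tested in Arabidopsis in the same way, gave 4.18, 4.28 and 4.12 in black plants, against 4.26, 4.20 and 4.24 in brown plants, close to the background level. BZIP1, also named AREB1 after the abscisic acid response element that it binds, gave 4.61, 4.34 and 4.62 in black plants, against 4.75, 4.50 and 4.38 in brown plants. The groups overlapped for BZIP44 and BZIP1, whose intervals ran from -0.24 to 0.17 and from -0.33 to 0.29.

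BZIP36, listed with the synonym SOYSTF1A and related to the light-signalling factor HY5 of Arabidopsis, gave 7.57, 7.30 and 7.57 in black plants and 7.92, 7.62 and 7.80 in brown plants. The groups were apart by a small margin, with brown plant 2 only just above the highest black plant. The difference was -0.30 (interval -0.59 to -0.01, unadjusted p = 0.043, adjusted p = 0.590 in limma). It was the last bZIP probe set under an unadjusted p of 0.05, and the next was a probe set of BZIP94 at 0.056. The related STF2 had probe sets with differences of -0.03 and 0.06, the first above background on only 1 array.

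Among factors of the unfolded protein response of the endoplasmic reticulum, BZIP37 gave 9.12, 9.21 and 8.96 in black plants, against 9.30, 9.32 and 9.26 in brown plants. All brown plants were higher, by a mean of 0.19 on the log2 scale (difference -0.19, interval -0.42 to 0.03, limma adjusted p = 0.646). Its relative BZIP38 had 1 probe set at -0.15 and another at 0.08, and the probe set of BZIP68 above background gave 10.2 to 10.3 in all 6 plants.

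BZIP35 had the largest difference towards brown. Its signals were 4.06, 4.88 and 4.61 in black plants and 5.21, 4.96 and 5.45 in brown plants, so the groups did not overlap, although black plant 2 lay just below brown plant 2. The signals were low, and that of black plant 1 lay below the 99th percentile of the pathogen probe sets on its array, 4.45. The difference was -0.69 with an interval from -1.21 to -0.16 (unadjusted p = 0.018, adjusted p = 0.518 in limma). Without black plant 1, the lowest of the 6, the difference was -0.46 (limma adjusted p = 0.814). BZIP94 lay on the other side, with 6.20, 5.79 and 6.28 in black plants and 5.72, 5.92 and 5.42 in brown plants. Black plant 2 lay below brown plant 2, and the difference of 0.40 had an interval from -0.01 to 0.81 (limma adjusted p = 0.610). BZIP28 gave 8.67, 8.38 and 8.90 in black plants and 8.99, 8.83 and 8.97 in brown plants, a difference of -0.28 with overlap. The other probe sets of BZIP94 and BZIP28 gave differences of 0.21 and -0.16, also with overlap.

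**Figure D2:**
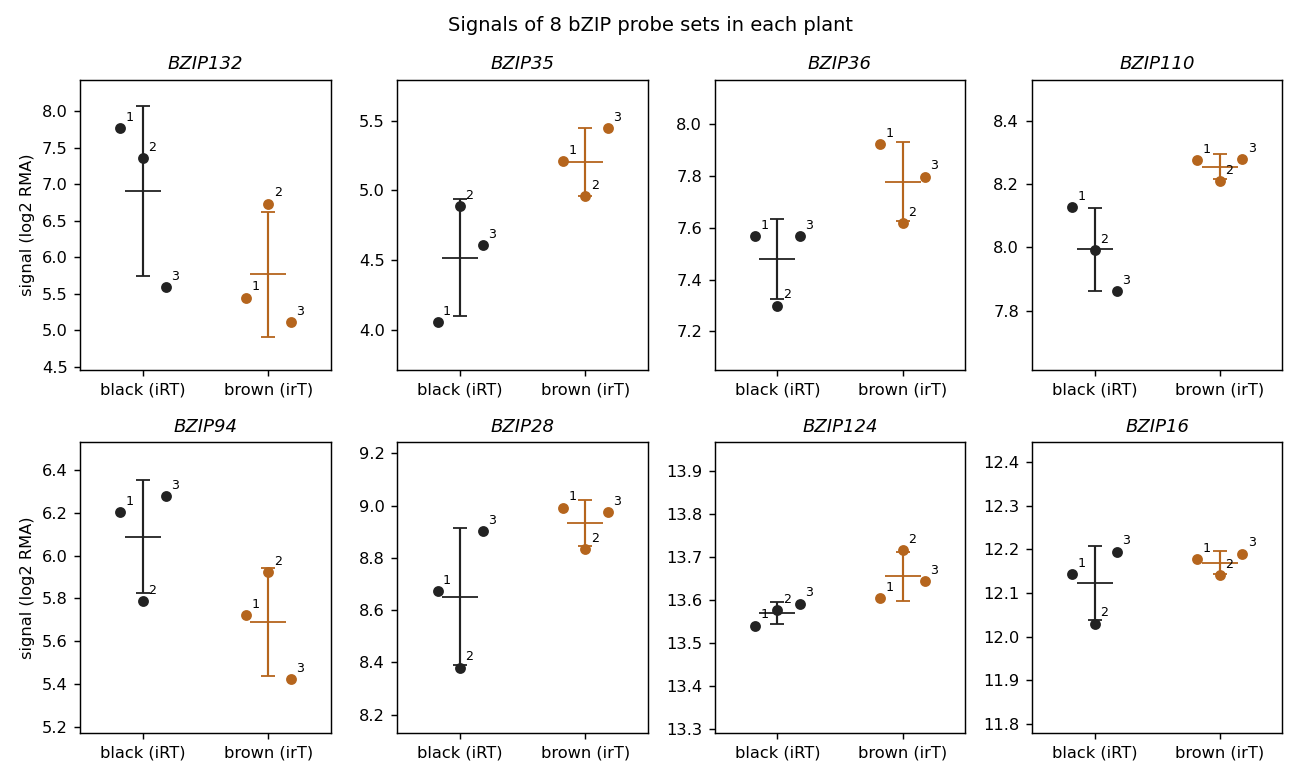
Log2 RMA signal of 8 bZIP probe sets in each plant, with black (iRT) left of brown (irT) in every panel and plant numbers beside the points. For BZIP110, BZIP94 and BZIP28, which have several probe sets, the panel shows the one with the smallest p in limma. Horizontal bars are means and error bars are SD (n = 3), each panel has its own axis, and the groups overlap in BZIP132, BZIP94, BZIP28 and BZIP16.

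Of the 5 bZIP probe sets with the highest signals, those of BZIP124, BZIP16 and BZIP125 had ranges over the 6 plants of 0.18, 0.17 and 0.19. That of BZIP62, given above, ranged over 0.30 and that of BZIP59, given below, over 0.54, against a median of 0.37 over all bZIP probe sets. BZIP124 gave 13.54, 13.58 and 13.59 in black plants and 13.60, 13.72 and 13.64 in brown plants. All 3 brown plants were higher, but by 0.09 on average (difference -0.09, interval -0.28 to 0.11, limma adjusted p = 0.809). BZIP16 lay between 12.03 and 12.19 in all 6 plants and BZIP125 between 12.46 and 12.66, with differences of -0.05 and 0.04. Over the family the median SD within a genotype was 0.119, against 0.154 over all soybean probe sets.

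Probe sets of the same symbol did not always point the same way. Of the 58 symbols, 35 had 1 probe set and 23 had several, up to 4 for BZIP90. In 20 symbols at least 2 probe sets lay above background, and their differences had 1 sign in 8 symbols and both signs in 12. The gap between the lowest and highest difference had a median of 0.133 and was widest in BZIP90, at 0.70. A probe set of BZIP90 gave 4.69, 4.27 and 4.49 in black plants and 5.02, 4.91 and 4.86 in brown plants, with all brown plants higher (difference -0.44, interval -0.74 to -0.15, unadjusted p = 0.009, adjusted p = 0.473 in limma). These signals were low, and that of black plant 2 lay below the 99th percentile of the pathogen probe sets on its array, 4.54. Another probe set of BZIP90 gave 7.84, 7.88 and 7.96 in black plants and 7.66, 7.65 and 7.61 in brown plants, with all black plants higher (difference 0.25, interval 0.06 to 0.45, unadjusted p = 0.019, adjusted p = 0.524 in limma). BZIP90 thus held both the smallest p of the family and its only positive difference at an unadjusted p under 0.05.

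The second of these BZIP90 probe sets shares its source sequence with 2 more, which makes 3 from 1 expressed sequence tag. One of these gave 5.67, 5.79 and 5.51 in black plants, against 5.44, 5.48 and 5.38 in brown plants, also with black higher throughout (difference 0.22). The other was not well above background on any array. RefSeq lists 16 transcripts for BZIP90, against a median of 2 over the 55 matched bZIP genes. Which transcripts each probe set detects was not tested.

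In contrast, the 3 probe sets of BZIP59 had similar differences of 0.21, 0.23 and 0.25. The first came from signals of 11.76, 11.82 and 12.25 in black plants and 11.72, 11.77 and 11.71 in brown plants. Only black plant 3 stood clearly above the rest there. The second gave 9.68, 9.57 and 9.89 in black plants, against 9.56, 9.51 and 9.38 in brown plants, with no overlap. The limma adjusted p of the 3 probe sets lay between 0.643 and 0.720, and 2 of them share a source sequence, so they are not independent measurements. The 2 probe sets of BZIP111 gave -0.30 and 0.10. Of the 89 bZIP probe sets, 16 carry a suffix of designs that can match several transcripts, of the same gene or of different genes. Among them are the probe sets with differences of -0.26 for BZIP110, -0.16 for BZIP62 and 0.40 for BZIP94. Those with 0.21 for BZIP59 and 0.22 for BZIP90 are also among them. Which genes they detect was not tested.

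**Figure D3:**
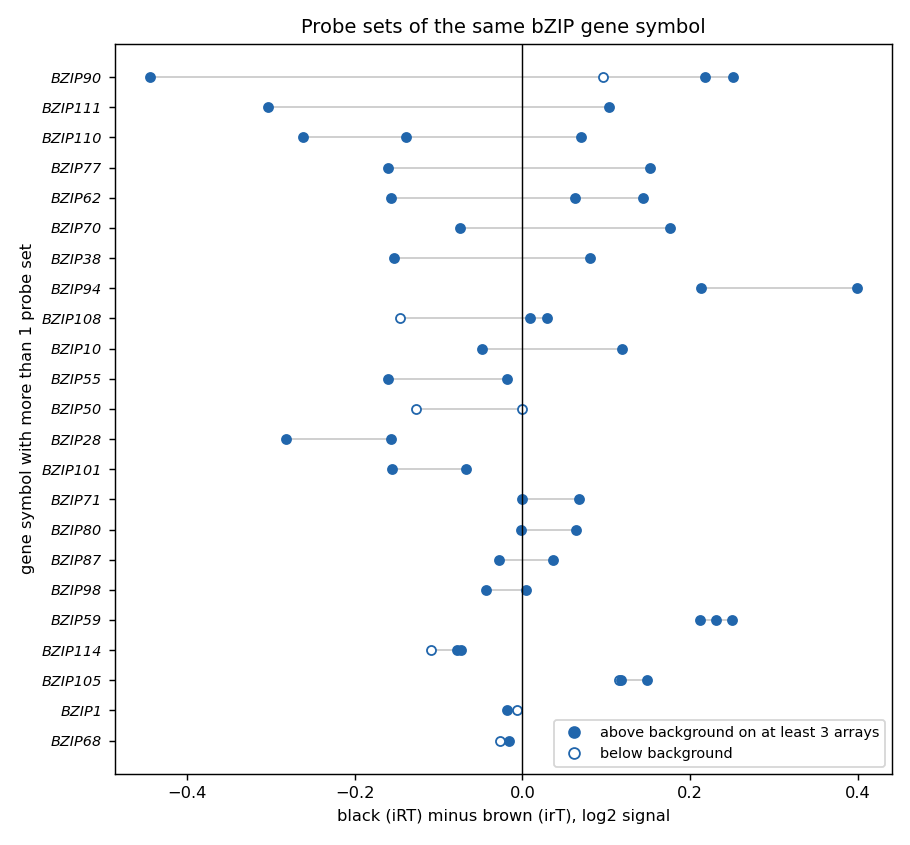
Differences in log2 signal, black (iRT) minus brown (irT), for the probe sets of each of the 23 bZIP symbols with several probe sets, ordered by the span of the differences. Filled points lie above background on at least 3 arrays, and BZIP90 at the top has points on both sides of 0 while those of BZIP59 lie together at 0.21 to 0.25.

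BZIP132 stood apart from the family in its variation between plants of the same genotype. Its SD within a genotype, pooled over both, was 1.02, and the next bZIP probe set, of BZIP105, had 0.40. Of all soybean probe sets, 0.691% had a larger SD. The range over 6 plants was 2.65 for BZIP132 and 1.39 for BZIP35, the next, while the median of the family was 0.372. BZIP105 gave 5.76, 5.24 and 4.86 in black plants and 5.52, 5.04 and 4.85 in brown plants, with the plants numbered 1 highest in both genotypes and a difference of 0.15 that turned to -0.09 without black plant 1.

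The plants in which BZIP132 was high were those with high transcripts of seed maturation proteins. A list of 34 probe sets of 26 symbols for LEA, PM and dehydrin-type proteins, which accumulate in maturing embryos, deviated on average from its 6-plant mean by 1.87, 0.75 and -0.93 in black plants 1 to 3 and by -0.65, 0.32 and -1.37 in brown plants 1 to 3. None of the 34 was called in limma, but 30 of the differences were positive, with a median of 1.39 against -0.017 over all soybean probe sets, and 21 (61.8%) were over 2-fold, against 1.01% of all. The difference of 1.14 of BZIP132 was thus close in size to the median of the maturation list. PM12, a seed maturation protein, had 11.07, 9.57 and 6.10 in black plants and 6.89, 8.40 and 5.15 in brown plants. Black plant 1, black plant 2 and brown plant 2 were the 3 highest plants in 22 of the 34 maturation probe sets. The same 3 plants were highest in 6 of the 89 bZIP probe sets (6.74%), near the 6.13% of all soybean probe sets. Of these 6, those of BZIP132 and BZIP70 lay above background. BZIP70 ranged over only 0.41. The bZIP probe sets as a whole did not share this order, with average deviations of 0.022, -0.040 and 0.014 in black plants 1 to 3 and 0.018, 0.0013 and -0.015 in brown plants 1 to 3. The list was chosen with results of these data known. The paper reports that embryo morphology, pod colour and length, days post anthesis and transcripts of a marker gene and DFR1 were equivalent between the genotypes. The part of seed maturity or of embryo tissue in the BZIP132 signal was not tested.

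**Figure D4:**
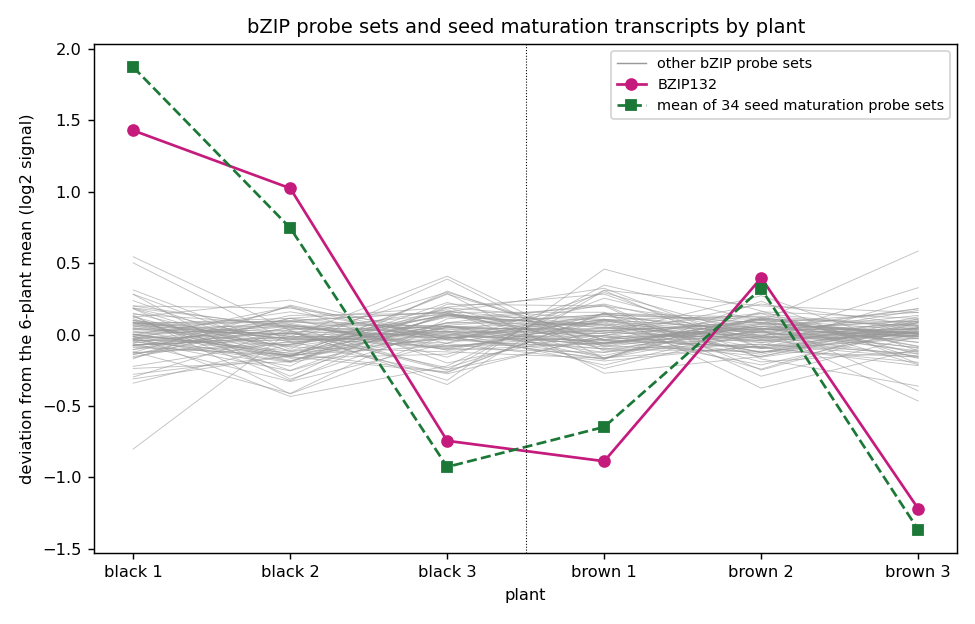
Deviation of each bZIP probe set from its mean over 6 plants (log2 signal), for black plants on the left and brown plants on the right, with BZIP132 as circles, the other bZIP probe sets as grey lines and the mean of 34 seed maturation probe sets as squares. BZIP132 and the maturation mean are both above 0 in black plants 1 and 2 and brown plant 2, while most grey lines stay near 0.

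Genes that work with bZIP factors were examined as lists. The 4 probe sets of bZIP factors under other names, GBF2 for a G-box binding factor and STF2, had no call, and 1 of GBF2 passed an unadjusted p of 0.05, as did 8.32% of all soybean probe sets. It gave 5.54, 5.60 and 5.60 in black plants, against 5.75, 5.88 and 5.83 in brown plants, a difference of -0.24 (limma adjusted p = 0.549). The other probe set of GBF2, above background on 4 arrays, had a difference of the opposite sign, 0.36, with overlap (limma adjusted p = 0.703). The abscisic acid list matched only 5 probe sets of SPK-1 to SPK-4, protein kinases of the family that phosphorylates bZIP factors in abscisic acid signalling. None was called, with differences between -0.28 and 0.02, and those of SPK-1 and SPK-2 were not above background on any array. SCOF-1, a cold-inducible zinc finger protein reported in soybean to enhance DNA binding by a bZIP factor, had 3 probe sets with differences of 1.02, 1.01 and 0.77. The first gave 8.92, 9.41 and 9.29 in black plants and 8.50, 7.65 and 8.42 in brown plants. All 3 were without overlap, as were 14.0% of all soybean probe sets, but none was called, with adjusted p of 0.330 to 0.374 in limma. Their unadjusted p in limma was 0.0025 to 0.0039. The study listed the first among its differentially regulated probe sets, at its own fold and p thresholds with SAM. It also reported that semi-quantitative RT-PCR bore out the genes it selected, SCOF-1 among them. The probe sets of SCOF-1 target the same gene and are not independent.

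Compared with other transcription factor families chosen by the same symbol rule, bZIP factors were more often above background, at 80.9% of 89 probe sets, against 57.3% of 103 WRKY, 65.7% of 102 MYB and 60% of 30 NAC probe sets. The share was 80.5% among soybean probe sets with 1 gene symbol and 69.2% among all soybean probe sets, so that of bZIP lay near the former. No test was made of these shares. The median size of the difference was 0.085 for bZIP, against 0.093 for WRKY, 0.145 for MYB and 0.172 for NAC. At an unadjusted p under 0.05 in limma there were 5 bZIP (5.62%), 9 WRKY (8.74%), 20 MYB (19.6%) and 3 NAC (10%) probe sets, against 8.32% of all soybean probe sets, and after adjustment 1 MYB probe set fell and none of the others was called.

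In the order of genes on the Glycine_max_v4.0 assembly, 20 to 1674 protein-coding genes lay between neighbouring bZIP genes of a chromosome. Some of the shortest gaps are given here, and whether bZIP genes lie closer together than other genes was not tested. On chromosome 13, BZIP94 and BZIP132 are separated by 67 protein-coding genes, and BZIP132 and BZIP112 by 27. The differences of BZIP94 and BZIP132 were positive and neither passed the test, and BZIP112 was not well above background. On chromosome 11, BZIP121, BZIP28 and BZIP126 follow one another with 20 and 41 genes between them, and on chromosome 12, BZIP122, BZIP21 and BZIP124 do so with 24 and 30. BZIP80 was the only bZIP gene found on chromosome 9. Its probe sets gave differences of 0.06 and -0.002.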

How the data were processed

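Total RNA of 6 seed coat samples (100 ng each) was transcribed in vitro for 16 h and hybridized to Affymetrix Soybean GeneChips. The authors ran RMA in FlexArray, which corrects background, normalizes all arrays and summarizes probes, and the deposited values are log2 signals, 1 column per plant. The version of the software is not given in the sources used here. Quantile normalization in RMA gives all arrays nearly the same distribution, so a shift common to most genes would be removed. Beside these, 2 deposited lists hold the authors' own comparison (group means, variances, fold changes, SAM scores and p-values) and were not used. No array was reprocessed.

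The genotypes were tested with lmFit and eBayes of limma 3.58.1 (R 4.3.3), two-sided, and p-values were adjusted by Benjamini and Hochberg over the 37641 soybean probe sets, never over the bZIP probe sets alone. The SAM test of the study was not rerun. An exact permutation test of 3 against 3 plants cannot give a p below 0.1. The number of arrays limits the precision. Gene symbols came from the annotation of the array, and 6 probe sets with a bZIP symbol beside others were left out of the 89. The members, gene lists and comparisons were chosen with earlier results of these data known.

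Values are named for members at an unadjusted p under 0.05, the 5 largest differences each way, the 5 highest signals and the 5 largest ranges (differences and ranges among members above background), and symbols with several probe sets. BZIP1, BZIP37, BZIP44, BZIP68, BZIP70, BZIP80, BZIP21, BZIP112 and the neighbouring genes were named for known roles, position or counts after their values were seen. The plant values of GBF2, SCOF-1, PM12, GY7, GY2 and KTI3 were also chosen after they were seen. The pipeline was tested on simulated data. Alternatives were other limma settings, array weights, median centring, cyclic loess and all probe sets. Others were filters on dim probe sets and on those that can match several transcripts, a replicate block, single plants left out and other thresholds. Python 3.11.15 with numpy 2.4.6 and matplotlib 3.10.9 drew the figures.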

Additional observations from a re-analysis of the deposited data

How the results depend on the processing

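No bZIP probe set had an adjusted p under 0.05 under any limma setting tried, and the number at an unadjusted p under 0.05 ran from 2 to 9. The share of all soybean probe sets at an unadjusted p under 0.05 was counted for the main fit alone. The smallest adjusted p was 0.207, for BZIP132 without black plant 3. With an unadjusted p under 0.05 as the threshold, 1 was higher and 4 were lower in black. Leaving out each plant in turn gave 18 to 28 bZIP probe sets without overlap, with 20.8% to 31.3% of all soybean probe sets apart. The median difference over the bZIP probe sets then ran from -0.040 to 0.0022. Centring each array on its median gave a median difference of 0.046, with the median of all soybean probe sets at 0.032. With the replicate block, 0 bZIP probe sets were called in either direction, 8 had an unadjusted p under 0.05, and 14 soybean probe sets were higher and 9 lower, against 25 and 16 without it. Deviations of same-numbered plants were correlated at 0.09, 0.29 and 0.50, and 5 of 6 plants correlated best with their own number, the exception being black plant 1 with brown plant 2 (0.26). The paper states that seed coats to be compared were harvested on the same days, but the labels tie the numbers to no shared day or batch. Whether same-numbered plants form pairs therefore cannot be told from the labels. The main fit compared the plants unpaired, with the replicate block as the paired alternative. Over all soybean probe sets the calls ranged from 9 higher and 4 lower without brown plant 1 to 40 and 20 with trend and robust settings, counted together, and cyclic loess gave 33 and 13. Of 17 named probe sets, 14 kept their sign in every setting. BZIP16 turned to 0.0018 with median centring and 0.0027 with cyclic loess, BZIP105 ran from -0.086 to 0.36 with 1 plant left out and was negative without black plant 1, and BZIP125 ran from -0.021 to 0.075 and was negative without black plant 3. The cause was not tested. At the 99th percentile of the pathogen probe sets, 64 bZIP probe sets lay above background, against 72. Signals near that level limit what can be seen of 17 probe sets.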

Other observations

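Of the soybean probe sets, 6 carry a bZIP symbol beside another symbol and were not counted among the 89. A probe set shared by BZIP124 and BZIP126 gave 13.74, 13.67 and 13.77 in black plants and 13.75, 13.73 and 13.72 in brown plants. One shared by BZIP36 and STF2 gave 8.99, 8.86 and 8.99 in black plants and 9.12, 8.92 and 9.17 in brown plants, with overlap. The probe set of BZIP76 and SOYSTGA gave 7.70, 7.32 and 7.74 in black plants and 7.40, 7.34 and 7.59 in brown plants. That of BZIP73A and BZIP73B was not well above background on any array. Differences over the 6 lay between -0.13 and 0.14, and the adjusted p in limma between 0.768 and 0.989.

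Of the 89 bZIP probe sets, black plant 3 had the highest signal of the 6 plants in 24 (27.0%), against 16.3% of all soybean probe sets. Black plant 2 had the lowest in 22 (24.7%), against 23.6% of all. Black plant 2 had the highest in 6 (6.74%), against 17.1% of all, and brown plant 3 in 8 (8.99%), against 15.4%. These counts were picked from those of all 6 plants after they were seen, and no test was made of them.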
